A study of Arabidopsis thaliana with 4 samples.

Results

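ECS1 (AT1G31580) and AT1G66100 are a pair of Arabidopsis thaliana genes on chromosome 1. Their array signals were bright in the ecotype Columbia and far lower in the ecotype Wassilewskija (Ws), where AT1G66100 was near background. Each was measured by 1 probe set annotated to that gene alone, so these are 2 of the 13356 genes that had a probe set of their own here. They were chosen by their deposited signals in that contrast between the ecotypes, and their ecotype differences are therefore given as a description with no test. The study hybridised RNA from above-ground tissue of 31-day-old plants to Affymetrix arrays, with 1 array for each of 4 groups: fnr1 mutant Ws, wild type Ws, fnr1 mutant Columbia and wild type Columbia. All groups were grown on peat soil at 21 °C with 8 h of light a day and were sampled 4 h into the light period. The labels name the mutated gene, FNR1, but give neither the alleles nor how many plants went into a sample, and FNR1 itself was not analysed here.

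ECS1 encodes a small protein of the plant cell wall. In Arabidopsis the gene was described near a locus for resistance to the bacterium Xanthomonas campestris pathovar campestris, without being that resistance gene itself. AT1G66100 belongs to the thionins, small secreted proteins rich in cysteine, many of which are toxic to bacteria and fungi and which are counted among the pathogenesis-related proteins. FNR1 is one of the leaf forms of ferredoxin-NADP+ oxidoreductase and works in the chloroplast, where it makes NADPH at the end of the photosynthetic electron chain. Columbia and Ws are natural accessions, and Columbia is the one whose genome was sequenced as the reference.

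Facts of the arrays as a whole bear on every level below. The signals are MAS5 intensities on a linear scale, and the median over the 22746 probe sets that are not controls was 27.5 on the fnr1 Ws array, 28.9 on the wild type Ws array, 27.7 on the fnr1 Columbia array and 22.1 on the wild type Columbia array. Signals are therefore printed as deposited, while differences were computed after each array was scaled to a common median, as log2(signal + 6.0), where 6.0 is the 25th percentile of the scaled signals. The leaf genes RCA, of Rubisco activase, and AOR were bright on all arrays, with signals of at least 6132 for RCA and 1081 for AOR. Of the root genes, EXPA7 had signals of 1.04 to 9.27 and PYK10, a beta-glucosidase of root ER bodies, had 73.7 to 138.

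ECS1 had a signal of 24.0 in fnr1 Ws and 14.4 in wild type Ws, against 5391 in fnr1 Columbia and 3844 in wild type Columbia. Both Ws arrays were thus low and both Columbia arrays high, which restates how the gene was chosen. AT1G66100 had 0.306 in fnr1 Ws and 3.44 in wild type Ws, against 1533 in fnr1 Columbia and 1331 in wild type Columbia. The same arrays were low and high as for ECS1, again by the way the gene was chosen.

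**Figure D1:**
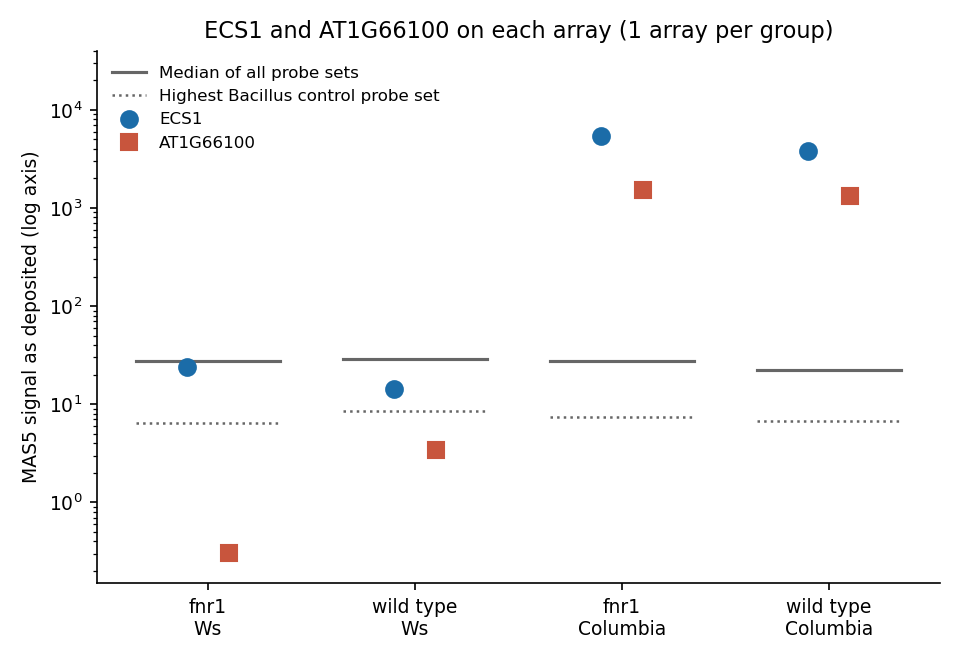
MAS5 signal as deposited (log axis) of ECS1 (circles) and AT1G66100 (squares) on the 4 arrays, 1 per group, with the median of all probe sets that are not controls (solid lines) and the highest of 27 control probe sets for Bacillus genes (dotted lines). ECS1 lies between the lines on both Ws arrays, AT1G66100 lies below both lines there, and both genes lie far above the lines in Columbia.

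Among the 22746 probe sets, ECS1 ranked 39th by signal in fnr1 Columbia and 58th in wild type Columbia, within the brightest 0.171% and 0.255%. AT1G66100 ranked 317th in fnr1 Columbia and 314th in wild type Columbia, within the brightest 1.39% and 1.38%. Probe sets differ in how strongly their probes bind, so these are ranks of signal and not of transcript abundance. Counted only among the 13513 probe sets annotated to a single gene, ECS1 was 12th in fnr1 Columbia and 16th in wild type Columbia, and AT1G66100 was 112th and 105th on the same arrays. ECS1 had 195 times the median signal of its array in fnr1 Columbia and 174 times in wild type Columbia. For AT1G66100 these multiples were 55.4 in fnr1 Columbia and 60.3 in wild type Columbia.

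**Figure D2:**
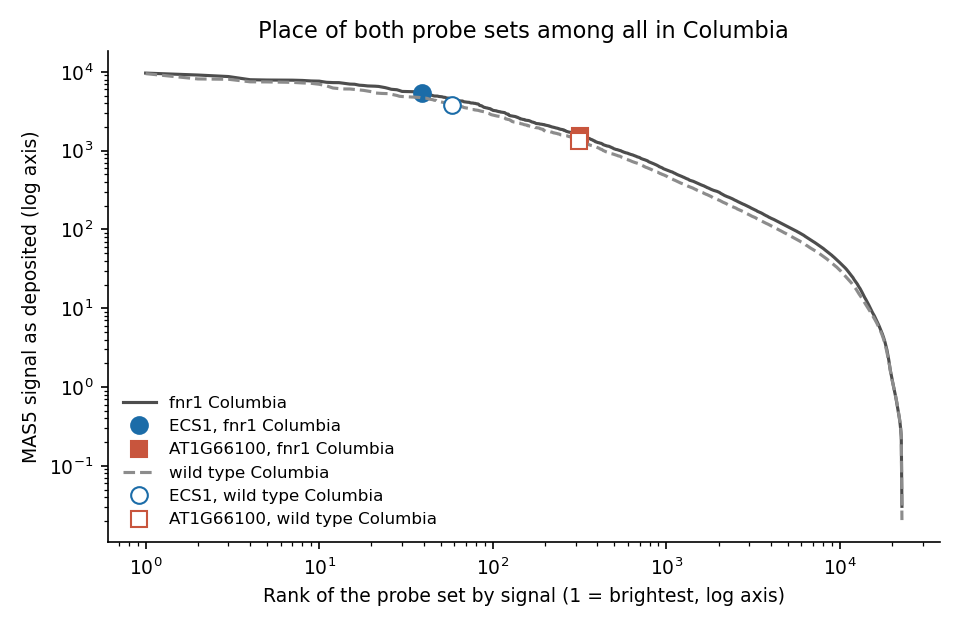
MAS5 signal as deposited against rank (both axes log) for all probe sets that are not controls, in fnr1 Columbia (solid line, filled symbols) and wild type Columbia (dashed line, open symbols). ECS1 (circles) sits at ranks 39 and 58, on the flat bright end of the curve, and AT1G66100 (squares) at ranks 317 and 314.

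In Ws neither gene kept such a place. ECS1 ranked 11888th in fnr1 Ws and 14018th in wild type Ws, near the middle of the 22746 probe sets. AT1G66100 ranked 22407th in fnr1 Ws, within the lowest signals of that array, and 18569th in wild type Ws. A view of the background came from the 27 control probe sets for Bacillus genes, whose highest signal was 6.49 in fnr1 Ws and 8.49 in wild type Ws. ECS1 lay above all 27 on both Ws arrays. AT1G66100 lay above 4 of them in fnr1 Ws and 22 in wild type Ws, and thus within their range. Background differs between probe sets, and detection calls were not used here, so whether ECS1 was detected in Ws was not tested.

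Probe sets brighter than each gene on both Columbia arrays were looked up in Ws. A total of 36 probe sets were brighter than ECS1 on both Columbia arrays, and the lowest median-scaled signal that any of them had on a Ws array was 315.1. Of the 284 probe sets brighter than AT1G66100 on both Columbia arrays, ECS1 had the lowest Ws signal, 13.7 after scaling, and the next lowest was 136. At least 2-fold lower in Ws in both genotypes were 2 of the 36 and 9 of the 284, beside 1.79% of all tested probe sets. The 9 include ECS1, which was chosen for such a drop. Both sets were picked by high Columbia signals, so these counts are a description and no excess is read from them. AT3G22240 enters neither count. Its deposited signal of 3487 in fnr1 Columbia was below that of ECS1, and its 816 in wild type Columbia was below those of ECS1 and AT1G66100. Its Ws signals were as low as those of ECS1, at 12.5 in fnr1 and 16.3 in wild type.

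The size of the ecotype difference is given as a ratio of signals for ECS1, whose Ws signals lay above 6.0, and as a lower bound for AT1G66100. After median scaling ECS1 was 223-fold lower in Ws among fnr1 plants and 349-fold lower among wild type plants. Both Ws signals of AT1G66100 fell below 6.0. With both at 6.0, its signal was at least 254.5-fold lower in Ws among fnr1 plants and at least 276.7-fold lower among wild type plants. These bounds hold only with 6.0 taken as background. The highest Bacillus control signals lay above it, at 6.49 in fnr1 Ws and 8.49 in wild type Ws as deposited. The bound follows the level chosen as background: with 32 in its place the fold of AT1G66100 was at least 47.7 in fnr1 and 51.9 in wild type, and that of ECS1, whose Ws signals lie below 32, at least 168 in fnr1 and 150 in wild type. The 2 genes cannot be ordered by the size of their difference, because only a bound is known for AT1G66100. The probe sequences were not used here, and a lower transcript level in Ws cannot be told apart from a poorer match of the probes to the Ws sequence. RNA of whole above-ground tissue also cannot separate fewer expressing cells from less RNA per cell.

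On the log2(signal + 6.0) scale, the Ws minus Columbia difference of ECS1 was -7.48 in fnr1 and -7.93 in wild type, and that of AT1G66100 was -7.93 in fnr1 and -7.49 in wild type. Over the 13648 probe sets that passed a filter on low signal, the median difference was 0.03 in fnr1 and 0.04 in wild type. The values of AT1G66100 are set by the pseudocount, since its Ws signals lie within the range of the Bacillus controls, and have no exact rank. Both genes passed the filter through their Columbia signals. A drop of 2-fold or more in Ws in both genotypes, which both genes showed by the way they were chosen, was found for 1.79% of tested probe sets.

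**Figure D3:**
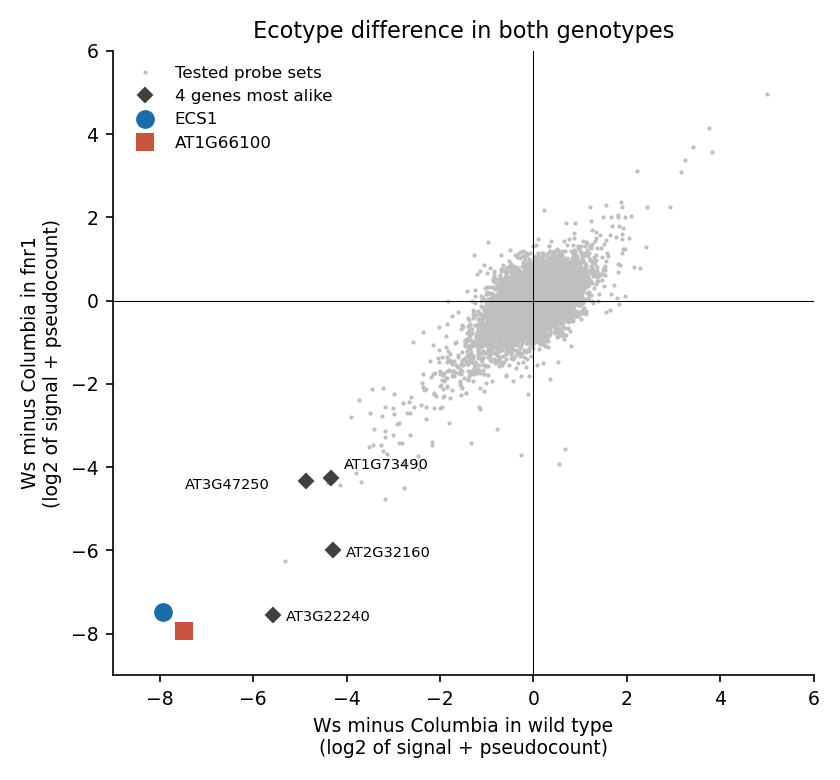
Ws minus Columbia difference in fnr1 plants (vertical) against that in wild type plants (horizontal), both as log2(signal + 6.0) after median scaling, for 13648 tested probe sets (grey), ECS1, AT1G66100 and the 4 other genes with the most similar profile (diamonds). ECS1 and AT1G66100 lie together at the lower left, at -7.48 to -7.93 on both axes, a place that the pseudocount sets for AT1G66100.

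The fnr1 effect within Columbia was small for both genes, and 1 array against 1 gives it no replicate check. As deposited, the ECS1 signal in fnr1 Columbia was 1.40 times that in wild type Columbia, and after median scaling it was 1.12 times. For AT1G66100 the same ratio was 1.15 as deposited and 0.92 after median scaling, so its direction turned with the scale. On the log2 scale the fnr1 minus wild type difference in Columbia was 0.16 for ECS1 and -0.12 for AT1G66100 after median scaling. Among tested probe sets 60.1% had a larger absolute difference than ECS1, and 69.9% a larger one than AT1G66100. Neither gene differed by 1.5-fold in Columbia, where 8.24% of tested probe sets did.

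Bright probe sets offer a closer view of the same pair of arrays. Over the 228 probe sets that were the brightest 1% in Columbia, the fnr1 to wild type ratio after median scaling had a median of 0.93 and quartiles of 0.84 and 1.01. AT1G66100, at 0.92, lay almost at this median, with 119 of the 228 above it. ECS1, at 1.12, lay above the upper quartile, with 20 of the 228 above it. These places do not depend on a common factor per array: as deposited, 119 and 20 probe sets again lay above, and the median ratio was 1.16.

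**Figure D4:**
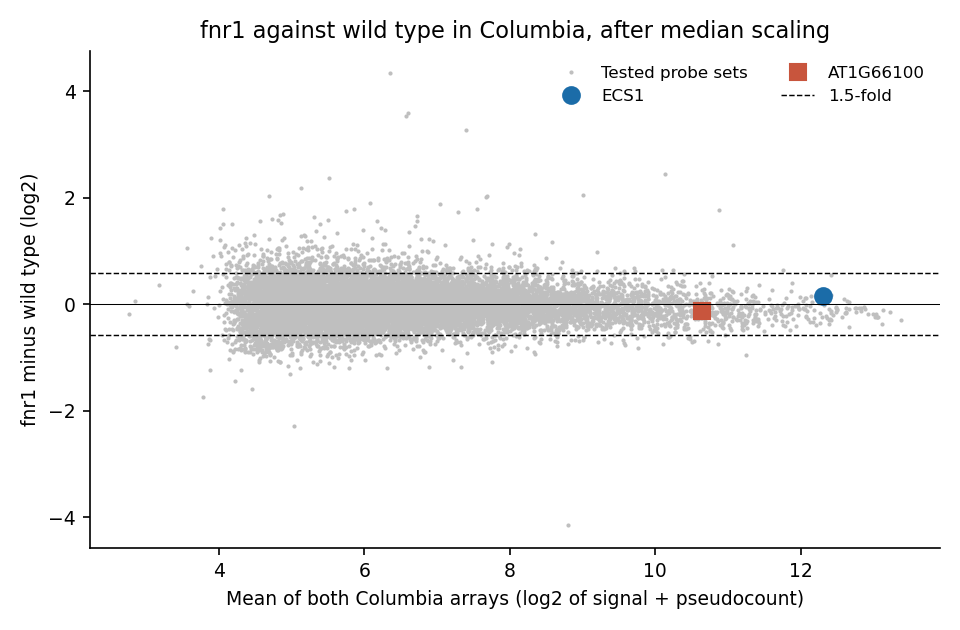
fnr1 minus wild type difference in Columbia (vertical, log2) against the mean of both Columbia arrays (horizontal, log2 of signal + 6.0), after median scaling, for 13648 tested probe sets (grey), ECS1 (circle) and AT1G66100 (square). ECS1 lies at 0.16 and AT1G66100 at -0.12 (0.20 on the deposited scale), both between the dashed lines at 1.5-fold.

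In Ws the fnr1 minus wild type difference was 0.61 for ECS1, with scaled signals of 24.1 in fnr1 and 13.7 in wild type. It was -0.56 for AT1G66100, with scaled signals of 0.307 in fnr1 and 3.28 in wild type that both lie within the range of the Bacillus controls. The ECS1 value is just past 1.5-fold on this scale, as were 5.70% of tested probe sets. It fell under 1.5-fold as deposited (0.56), with scaling to the hybridisation controls (0.56) and with a pseudocount of 32 (0.30). It stayed past 1.5-fold with quantile normalization (0.63), trimmed mean scaling (0.66) and a pseudocount of 1 (0.77). The value of AT1G66100 moved from -1.71 with a pseudocount of 1 to -0.13 with 32, and no direction of an fnr1 effect can be read from signals at background. ECS1 had the higher value in fnr1 in both ecotypes.

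Over both ecotypes, the difference between fnr1 and wild type was tested with limma across all 13648 probe sets, with ecotype as a second term and 2 arrays against 2. ECS1 had a fitted difference of 0.39 ± 0.16 (SE, log2, limma adjusted p = 0.665), and it did not pass the test. AT1G66100 had -0.34 ± 0.18 (SE, log2, limma adjusted p = 0.807) and did not pass either. For AT1G66100 this fit averages the Columbia difference of -0.12 with one between Ws signals at background, and the fitted value was -0.92 with a pseudocount of 1 and -0.12 with 32, so it carries little beyond the Columbia pair. The test called 25 of 13648 probe sets, 0.183%, with 22 higher and 3 lower in fnr1. Neither gene was called in any of the alternative fits run, which changed the scale, the pseudocount, the filter or the model, with a lowest adjusted p of 0.519 for ECS1 and 0.365 for AT1G66100. The adjusted p-values are corrected over all 13648 probe sets. Unadjusted, the limma p was 0.027 for ECS1 and 0.080 for AT1G66100, and 910 of the 13648 probe sets were under 0.05. Neither kind of p-value shows whether either difference lies within the spread between arrays. The fit leaves 1 residual degree of freedom. Each group had 1 array, so neither difference could be compared with a spread between replicates.

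Likeness of profile over the 4 arrays was measured by the Euclidean distance between centred log2 profiles, among 7351 tested probe sets of a single gene. ECS1 and AT1G66100 were nearest to each other (0.85), which restates how they were chosen, since the ecotype contrast dominates such a profile. The next 4 genes were the same for both and came in the same order: AT3G22240, AT2G32160, AT3G47250 and AT1G73490. Their distances from ECS1 were 1.71, 2.78, 3.11 and 3.43, and from AT1G66100 they were 1.77, 2.69, 3.18 and 3.44. These genes were picked for likeness, so their values are a description.

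AT3G22240 had a signal of 12.5 in fnr1 Ws and 16.3 in wild type Ws, against 3487 in fnr1 Columbia and 816 in wild type Columbia. Its difference between fnr1 and wild type in Columbia was 1.76 (log2), where ECS1 had 0.16 and AT1G66100 had -0.12. AT2G32160 had signals of 0.311 in fnr1 Ws and 4.23 in wild type Ws, against 399 in fnr1 Columbia and 152 in wild type Columbia, with a Columbia fnr1 difference of 1.04. AT3G47250 and AT1G73490 were closer to ECS1 and AT1G66100 in that respect, with Columbia fnr1 differences of -0.15 and -0.01. Their signals ran from 239 to 304 in Columbia.

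Genes next to ECS1 and AT1G66100 on the chromosome, in the order of the TAIR10.1 gene table, were described by position alone. Of the 20 nearest genes of ECS1, 10 on each side, 13 had a probe set of their own in the annotation used. None of the 13 was at least 2-fold lower in Ws in both genotypes, where the share over all tested probe sets is 1.79%. The nearest of the 13 lay at positions -5 and 2 in gene order from ECS1, so the genes directly beside it have no values here. Only 4 of the 13 passed the filter on low signal, and the others were too dim to show a large drop. Their Ws minus Columbia differences ran from -0.94 to 0.65 in fnr1 and from -1.23 to 1.18 in wild type. Among the 4 tested, AT1G31550 was called, higher in Ws by 0.87 ± 0.20 (SE, log2, limma adjusted p = 0.00908), where 3.07% of tested probe sets were called higher.

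Of the 20 nearest genes of AT1G66100, 7 had a probe set of their own and 3 of these passed the filter. AT1G66130 was called lower in Ws, with a Ws minus Columbia difference of -1.23 ± 0.17 (SE, log2, limma adjusted p = 0.000115), where 5.25% of tested probe sets were called lower. Its signal was 70.2 in fnr1 Ws and 104 in wild type Ws, against 194 in fnr1 Columbia and 174 in wild type Columbia. AT1G66080 was also at least 2-fold lower in Ws in both genotypes, with differences of -1.14 in fnr1 and -1.01 in wild type. Its signals were 5.65 in fnr1 Ws and 9.51 in wild type Ws, against 19.7 in fnr1 Columbia and 19.5 in wild type Columbia. The Ws signals lie within or just above the range of the Bacillus controls, so its differences depend on the pseudocount, and it was too dim to be tested. These 2 of the 7 stand beside 1.79% over all tested probe sets, and 7 genes are too few to compare shares. The gene directly beside AT1G66100 with a probe set, AT1G66110, had signals of 0.96 to 4.80 on the 4 arrays, all within the range of the Bacillus controls, and was too dim to be tested.

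**Figure D5:**
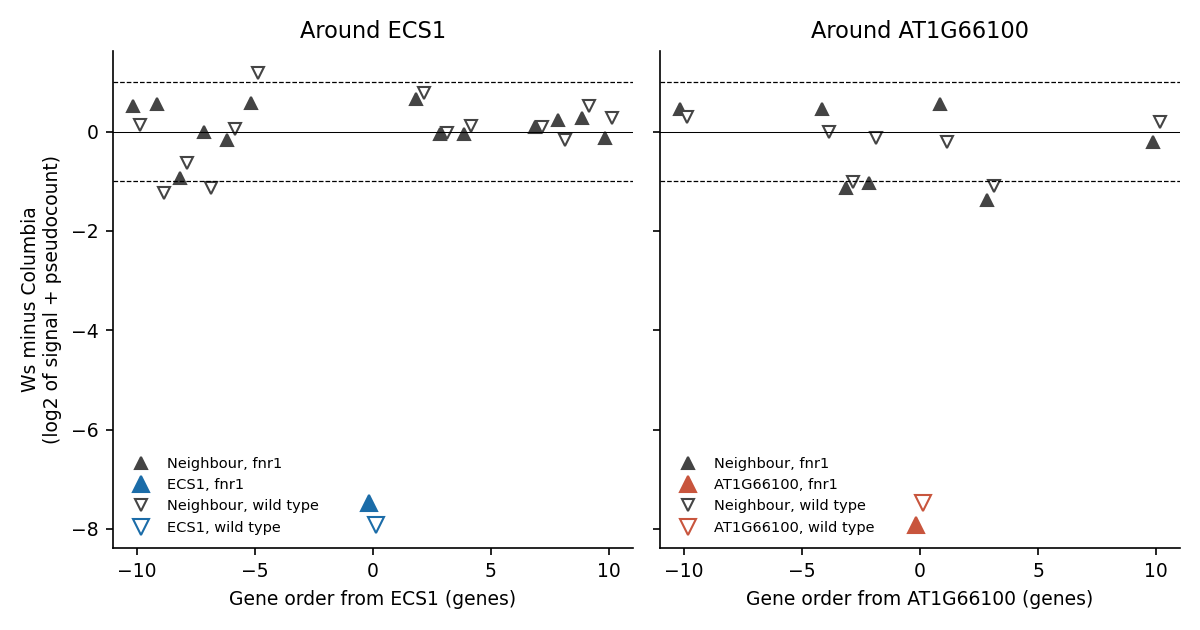
Ws minus Columbia difference (log2 of signal + 6.0, after median scaling) in fnr1 (filled) and wild type (open) of ECS1 and AT1G66100 (coloured, at position 0) and of their neighbours with a probe set, by gene order on the chromosome. Dashed lines mark 2-fold, and no neighbour lies below -1.38, while ECS1 and AT1G66100 lie at -7.48 to -7.93.

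AT1G66100 was also set beside the other thionin genes. Of 6 thionin genes listed, 4 had a probe set of their own, and AT1G66100 and THI2.2 passed the filter. THI2.2, a thionin known from seedlings, had signals of 123 in fnr1 Ws and 112 in wild type Ws, against 242 in fnr1 Columbia and 236 in wild type Columbia. It was called lower in Ws, with a Ws minus Columbia difference of -1.18 ± 0.17 (SE, log2, limma adjusted p = 0.000198), where 5.25% of tested probe sets were called lower. AT1G66100, the only other thionin tested, was chosen by this contrast, so THI2.2 alone says nothing about the family. THI2.1, a thionin induced by jasmonate and pathogens, was dim on every array with signals of 5.49 to 10.9, and AT2G15010 was dimmer still at 0.625 to 5.08. Between fnr1 and wild type, THI2.2 was not called (limma adjusted p = 0.99).

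Plant defensins are a second family of small cysteine-rich defence proteins, and of 12 listed genes 9 had a probe set of their own and 4 passed the filter. None of the 4 was called lower in Ws and 2 were called higher there, beside 5.25% called lower and 3.07% called higher over all tested probe sets. PDF1.2, a defensin used as a marker of jasmonate and ethylene responses, had signals of 52.7 in fnr1 Ws and 82.4 in wild type Ws, against 25.9 in fnr1 Columbia and 14.5 in wild type Columbia. It was higher in Ws by 1.35 ± 0.24 (SE, log2, limma adjusted p = 0.00143), and PDF1.2b by 1.19 ± 0.27 (limma adjusted p = 0.00859). The near-identical PDF1.2 copies may share signal, since the PDF1.2b probe set is of the kind that can bind related transcripts. LCR69 and LCR68 did not pass the test between the ecotypes (limma adjusted p = 0.149 and 0.434), and none of the 4 was called between fnr1 and wild type. None of the 5 listed PR1 to PR5 genes had a probe set in the annotation used. That annotation leaves 8730 probe sets unlisted, so the signals of these genes were not looked at.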

How the data were processed

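Each deposited value is the intensity of a probe set on an array, on a linear scale. MAS5 produced it, per the submitters' processing notes, and neither its version nor its scaling target is given in the sources used here. From these intensities, 64 control probe sets were left out, arrays were scaled to the median of their medians, and log2(signal + 6.0) was taken. The arrays did not share a level as deposited, so the deposited scale is an alternative. Probe sets at or above the 40th percentile of mean log2 signal (13648 of 22746) entered a limma fit (limma 3.58.1, R 4.3.3) with genotype and ecotype as terms, a variance trend, 2-sided tests and Benjamini-Hochberg adjustment over all of them at 0.05. The fit was tested on simulated data with additive effects and the same noise for every probe set. That setting leaves out genotype effects that differ between the ecotypes.

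A log2 difference understates the change of dim probe sets. With 1 array per group, no spread between replicates enters the p-values. The residual of the fit is the difference between the genotype effects in the 2 ecotypes, which may be technical. limma combines it with the variance of the other tested probe sets (prior degrees of freedom 15.7). The number of arrays limits the precision. Genes were named from the platform annotation where it gives 1 gene (13513 probe sets, 503 with several, 8730 not listed); 13436 matched TAIR10.1 by gene ID. Named are both genes, the 5 most similar profiles of each, neighbours 2-fold apart in both genotypes, and the measured list members. AT1G31550 and AT1G66110 were named after their values were seen. The genes and lists were chosen with earlier results of these data known. Other scales, pseudocounts of 1 and 32, no filter, no variance trend and no ecotype term were tried.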

Additional observations from a re-analysis of the deposited data

How the results depend on the processing

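The fnr1 minus wild type difference of ECS1 in Columbia stayed above 0 under all 6 alternatives tried, from 0.14 with scaling to the hybridisation controls, an alternative chosen after seeing the data, to 0.49 on the deposited scale. That of AT1G66100 was -0.15 to -0.01 under the other alternatives and 0.20 on the deposited scale, where the wild type Columbia array is the dimmest. In Ws, AT1G66100 had -1.71 with a pseudocount of 1. Leaving out either array of an ecotype leaves the difference within the other, a value with no test: 0.16 to 0.61 for ECS1 and -0.56 to -0.12 for AT1G66100. The number of probe sets limma called between fnr1 and wild type, 25, was 9 with trimmed mean scaling, 11 with a pseudocount of 32, 6 with no variance trend, 0 with no filter (1182 at an unadjusted p under 0.05) and 0 with no ecotype term (210 unadjusted); the cause was not tested. It has no value with an array left out, since no residual degree of freedom remains. For AT1G66100 a floor of 1 gave ratios of 1527 in fnr1 and 506 in wild type that are no bounds. Floors of 1 and 6.0 both lie within the range of the Bacillus controls, so bounds with 6.0 hold only if it is taken as background. A floor of 32, above all of these controls, gave at least 47.7 in fnr1 and 51.9 in wild type. The fold of ECS1 in wild type was at least 150 with a floor of 32, which lies above its Ws signal. Ranked among single-gene probe sets only, ECS1 was 12th in fnr1 Columbia and 16th in wild type Columbia, and AT1G66100 112th and 105th. No pairing beyond ecotype, which is already a term of the fit, was possible because each group has 1 array.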
